A study of Mus musculus with 27 samples.

Results

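The genes described here are 10 C-type lectin receptors of mouse myeloid cells, *Cd209a*, *Cd209b*, *Cd209d*, *Clec4a2*, *Clec4d*, *Clec4e*, *Clec4n*, *Clec7a*, *Clec12a* and *Clec5a*. They were taken by symbol from the 30869 gene symbols of the array, on which 16 probes carry one of the 10 names. The group was selected on the genotype difference of *Cd209a* in monocytes, where *Cd209a* was lower in Mbd2-/- than in WT cells on these same arrays. Values from that contrast are therefore given as a description, without a test. Transcripts were measured on Illumina MouseWG-6 BeadChips, where beads coated with a probe are scanned in a single colour and their brightness follows the amount of transcript. Every value below is a normalized log2 intensity unless it is called a difference.

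Monocytes, macrophages and type 1 conventional dendritic cells (cDC1s) were sorted from the colon lamina propria of WT and Mbd2-/- mice. All of these mice were C57BL/6 animals of matched age and sex that drank 2% dextran sodium sulfate (DSS), which injures the colon epithelium, so that no untreated colon was compared. By the methods, mice were co-housed with littermate controls where this could be done, and the gates took CD11b+ Ly6C+ cells as monocytes, CD11b+ Ly6C- F4/80+ MHC-II+ cells as macrophages and CD11b- CD11c+ CD103+ cells as cDC1s. Monocytes and macrophages each gave 5 WT and 5 Mbd2-/- arrays and cDC1s gave 2 and 3, which makes 25 colon arrays. One further array per genotype held splenic CD4 T cells after a T cell transfer. Mbd2 was missing from every cell of the Mbd2-/- mice, so a difference in a sorted cell need not arise in that cell. An array held RNA of 1 to 5 mice by the record and of 1 to 10 by the methods, and single arrays are named here by the number in their label. The single *Mbd2* probe was above background on 0 of 27 arrays in either genotype, so the genotype labels could not be checked on the targeted gene.

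C-type lectin receptors are surface proteins that recognise sugars and related ligands on microbes and damaged cells. Clec7a (Dectin-1) binds fungal β-glucan and signals through a tyrosine motif of its own, while Clec4e (Mincle), Clec4d (MCL) and Clec4n (Dectin-2) signal through the Fc receptor gamma chain that *Fcer1g* encodes. Clec5a (MDL-1) pairs with the adaptor encoded by *Tyrobp*, and both routes lead through the kinase Syk to the Card9, Bcl10 and Malt1 complex. Clec4a2 (DCIR) and Clec12a (MICL) carry inhibitory motifs. Cd209a, Cd209b (SIGNR1) and Cd209d (SIGNR3) are mouse relatives of human DC-SIGN and bind mannose and fucose sugars. *Cd209a* is widely used as a marker of monocyte-derived dendritic cells, and *Cd209b* is known from marginal zone macrophages of the spleen.

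The 10 genes lie in clusters. In RefSeq annotation of assembly GRCm38.p6, *Cd209a* (chr8:3743395-3748984), *Cd209d* (chr8:3871824-3878548) and *Cd209b* (chr8:3917655-3926841) follow each other on chromosome 8. *Clec4a2* (chr6:123122690-123143999), *Clec4n* (chr6:123229843-123247024), *Clec4d* (chr6:123262107-123275268) and *Clec4e* (chr6:123281789-123289871) lie together on chromosome 6, as do *Clec12a* (chr6:129349783-129365303) and *Clec7a* (chr6:129461591-129472785), with *Clec5a* (chr6:40574898-40585805) apart. Mbd2 is a protein that binds methylated CpG dinucleotides, so the CpG sites of the 250 bases before each member's transcript start in the RefSeq table were counted. These windows held few. *Clec4d* had 0 sites, *Cd209a* and *Clec4a2* 1 each, *Cd209b* 2, *Cd209d*, *Clec4e*, *Clec12a* and *Clec5a* 3 each, and *Clec7a* 5 in both of its windows. The median over 32851 such windows in the RefSeq table was 6, and 92.1% of them held at least one. DNA methylation was not measured in these arrays.

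The windows of the 3 genes on which the comparisons below turn most are printed 5′ to 3′ on the strand of the gene, with each CG in capitals. They are *Cd209a* (chr8:3748985-3749234, minus strand), *Clec4d* (chr6:123261857-123262106, plus strand) and *Clec4e* (chr6:123289872-123290121, minus strand), from RefSeq, assembly GRCm38.p6.
Cd209a: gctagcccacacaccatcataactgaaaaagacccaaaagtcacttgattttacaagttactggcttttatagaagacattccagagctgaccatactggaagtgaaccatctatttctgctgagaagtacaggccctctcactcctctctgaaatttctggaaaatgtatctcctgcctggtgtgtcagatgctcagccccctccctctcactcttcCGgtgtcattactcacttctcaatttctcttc
Clec4d: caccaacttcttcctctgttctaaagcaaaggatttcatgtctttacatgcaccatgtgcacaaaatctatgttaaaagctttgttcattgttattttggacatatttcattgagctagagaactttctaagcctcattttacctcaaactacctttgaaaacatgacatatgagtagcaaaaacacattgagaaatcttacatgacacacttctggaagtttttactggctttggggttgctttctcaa
Clec4e: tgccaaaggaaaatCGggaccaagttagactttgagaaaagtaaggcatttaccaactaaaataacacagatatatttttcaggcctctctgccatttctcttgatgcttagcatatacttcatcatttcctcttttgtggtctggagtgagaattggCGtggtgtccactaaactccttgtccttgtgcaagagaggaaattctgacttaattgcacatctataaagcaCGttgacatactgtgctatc
The single CG of the *Cd209a* window lies near its end next to the gene, and the *Clec4d* window has none. The exact motif GAGGAAGT, one form of the sites bound by the myeloid factor PU.1, was in 0 of the members' windows on either strand, against 2.44% of all windows. Shorter forms of the site were not counted, and nothing is read from this count. The motif TTGCNNAA, bound by C/EBP factors, occurred once in each of the windows of *Cd209b*, *Clec4e* and *Clec12a*, against 9.56% of all windows. No promoter entry was found for *Clec4n*.

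The arrays were of similar quality. Mean raw intensity ran from 172 to 353, between 16024 and 18608 probes were above background (detection p under 0.05), and arrays of one group correlated at 0.945 to 0.987. The labels fitted the markers of each cell. All 7 macrophage markers tested, among them *C1qb*, were called higher in macrophages than in monocytes, 4 of 5 monocyte markers were called lower, and 7 of 8 cDC1 markers were called higher in cDC1s than in monocytes. The probe of *Ccr2*, a defining monocyte marker, was above background on 1 of 5 WT and 0 of 5 Mbd2-/- monocyte arrays. At least 6 of 7 epithelial markers were above background on every array, at summed intensities of 5204 to 19852. Epithelial transcripts were thus present in all the sorts, and their part in the values below was not tested. One BeadChip of this type holds 6 arrays. Neither the labels nor the table name the chips, so sets of 6 were inferred from the order of the table's columns and may not be the chips. Monocytes and macrophages lie in different sets, each of which holds both genotypes, and the WT cDC1s lie with monocytes and the Mbd2-/- cDC1s with macrophages or apart. The set and the genotype of cDC1s therefore cannot be told apart, nor can the set and the cell type of monocytes and macrophages.

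*Cd209a*, for which the group was chosen, was above background on all 25 arrays. In WT monocytes it read 6.47, 7.71, 7.36, 5.85 and 6.79 on arrays 1 to 5. In Mbd2-/- monocytes it read 5.10, 5.25, 4.72, 4.70 and 4.77 on arrays 6 to 10. Every Mbd2-/- monocyte array was dimmer than every WT monocyte array, and the WT arrays were spread more widely (SD 0.74, n = 5) than the Mbd2-/- arrays (SD 0.25, n = 5). Mbd2-/- arrays 8, 9 and 10 were only just above background, at detection p of 0.033, 0.016 and 0.035. The lowest signals of probes above background on them were 4.65, 4.55 and 4.68. So near background, both the spread of the Mbd2-/- arrays and the size of the difference are limited from below. The means of 6.84 and 4.91 differed by -1.93 (standard error 0.29). Within the first set of columns the difference was -2.44 (3 WT and 2 Mbd2-/- arrays), and within the second it was -1.30 (2 WT and 3 Mbd2-/- arrays). Without background correction it was -0.91. In sorted pools, fewer cells that carry a transcript and less transcript per cell cannot be told apart.

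**Figure D1:**
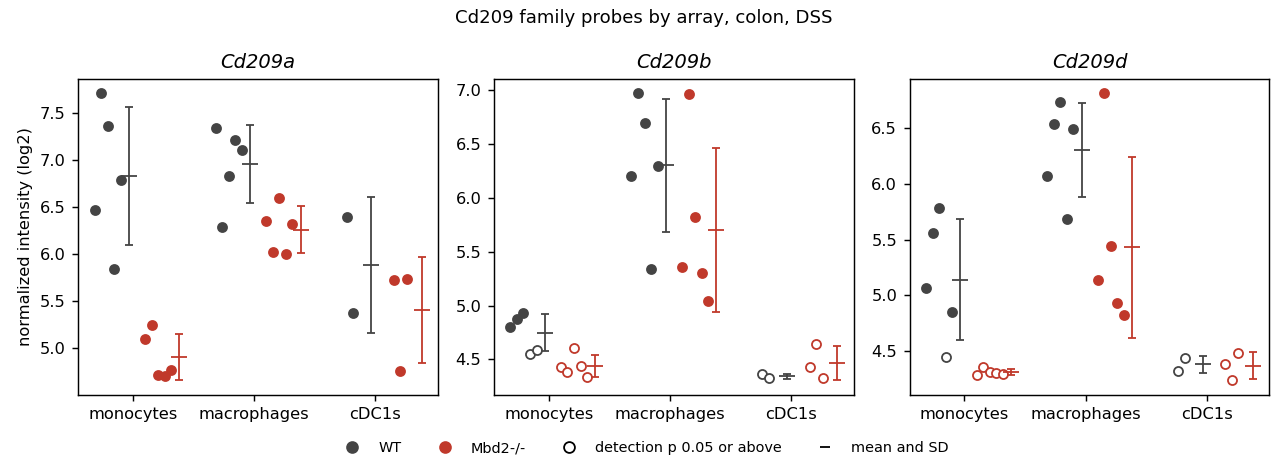
Normalized log2 intensity (vertical axis) of the *Cd209a*, *Cd209b* and *Cd209d* probes on each of the 25 colon arrays, by cell type (horizontal axis), with WT in grey and Mbd2-/- in red; open points are not above background (detection p 0.05 or above) and bars show the mean and SD. The 5 Mbd2-/- monocyte arrays sit between 4.70 and 5.25 for *Cd209a*, below all WT monocyte arrays, while for *Cd209b* and *Cd209d* the Mbd2-/- macrophage array 17 sits at 6.97 and 6.82, above the other 4 of its group.

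Markers of other cells were set beside this value. The 4 B and plasma cell markers summed to an intensity of 340 to 424 on WT and of 181 to 298 on Mbd2-/- monocyte arrays. These sums did not overlap, nor did the arrays of 4.85% of all probes tested. Of 3 such markers tested 1 passed, *Cd79b*, part of the B cell receptor, which differed by -1.07 (standard error 0.22). Of all probes tested in monocytes 1.8% passed in either direction. *Ms4a1*, another B cell marker, was above background on no monocyte array. The 7 markers of cDC2s and monocyte-derived dendritic cells, some of which monocytes also express, overlapped in their sums. These were 8646 to 9023 on WT and 8037 to 9381 on Mbd2-/- monocyte arrays. Of the 7 markers 1 passed, the transcription factor gene *Irf4* (-0.75, standard error 0.17), and their median difference was -0.01. The sums of 7 neutrophil markers, 2984 to 8558 and 7017 to 9030, overlapped as well. The part of these cells in the *Cd209a* difference was not tested.

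Among the other Cd209 genes, *Cd209d* was above background on 4 of 5 WT monocyte arrays and on 0 of 5 Mbd2-/- monocyte arrays. It read 5.06, 5.56, 5.79, 4.44 and 4.85 in WT and 4.28, 4.35, 4.31, 4.30 and 4.29 in Mbd2-/- monocytes, so no Mbd2-/- array reached the dimmest WT array. WT was at least 1.41-fold brighter, where the dim side was set at the lowest signal of probes above background on each array. The brightest *Cd209b* probe was above background on 3 WT and 0 Mbd2-/- monocyte arrays, at group means of 4.75 and 4.44. Neither probe was above background on enough monocyte arrays to be tested. Another *Cd209b* probe, above background on 4 WT and 2 Mbd2-/- monocyte arrays, differed by -0.25.

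In macrophages limma found 0 of the 8 members tested at an adjusted p under 0.05 between genotypes, and 0 of them had arrays that did not overlap, where 5.29% of all probes tested had. *Cd209a* read 7.34, 6.29, 6.84, 7.22 and 7.11 on WT arrays 11 to 15 and 6.35, 6.02, 6.60, 6.00 and 6.32 on Mbd2-/- arrays 16 to 20. WT array 12 lay inside the Mbd2-/- range and the other 4 WT arrays lay above it. The difference was -0.70 (standard error 0.29, limma adjusted p = 0.147), and within both sets of columns it was negative, at -0.66 and -0.84. The B and plasma cell markers summed to 557 to 920 on WT and 317 to 658 on Mbd2-/- macrophage arrays, and *Cd79b* fell by 0.76 (adjusted p = 0.0421). Of the 7 markers of cDC2s and monocyte-derived dendritic cells, *Irf4*, *Kmo* and *Dpp4* fell and *Mgl2* rose in Mbd2-/- macrophages. Of 5 monocyte markers tested *Ly6c1* (0.91, adjusted p = 0.0484) and *Plac8* (0.46, adjusted p = 0.0381) rose, of 7 macrophage markers *Mertk* rose (0.88, adjusted p = 0.00855), and of 2 eosinophil markers *Prg2* rose (0.91, adjusted p = 0.0204). Of all probes tested in macrophages 5.67% passed in either direction. Of 5 cDC1 markers tested *Zbtb46* fell by 0.55 (adjusted p = 0.0093). The part of these cells in the *Cd209a* values was not tested.

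*Cd209d* read 6.07, 6.54, 6.74, 5.69 and 6.49 in WT macrophages and 5.14, 6.82, 5.44, 4.93 and 4.82 in Mbd2-/- macrophages. Mbd2-/- arrays 16, 18, 19 and 20 were dimmer than every WT array, and array 17 was brighter than all of them. The difference over all arrays was -0.88 (standard error 0.29, limma adjusted p = 0.0719). Without array 17 it was -1.22 with a limma adjusted p of 0.00446, which then counted as a call.

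*Cd209b* showed a like pattern. The check of single values described below flagged array 17 for neither gene. It read 6.20, 6.97, 6.70, 5.34 and 6.30 in WT and 5.35, 6.97, 5.82, 5.31 and 5.04 in Mbd2-/- macrophages, and array 17 again stood above the other 4 Mbd2-/- arrays. The difference was -0.60 (standard error 0.28, limma adjusted p = 0.185), and -0.92 (adjusted p = 0.0176) without array 17. Within one set of columns the *Cd209b* difference was -1.45, and within the set that holds array 17 it was 0.23. For *Cd209d* these values were -1.57 and -0.29. The other 2 probes of *Cd209b* differed by -0.43 and -0.38, and neither passed.

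Once the group means were removed, *Cd209b* and *Cd209d* moved together from array to array (r = 0.86 over 25 arrays), whereas *Cd209a* followed neither of them (r = -0.19 with *Cd209b* and 0.18 with *Cd209d*). These correlations are a description, since the arrays share their normalization. The table holds no probe sequences, so sharing of signal between probes of these related genes was not tested.

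In cDC1s *Cd209a* read 6.40 and 5.38 in WT and 5.73, 4.76 and 5.74 in Mbd2-/-, and the genotypes overlapped. The difference of -0.48 (standard error 0.42, limma adjusted p = 0.511) had an interval from -1.35 to 0.38, and it was 0.03 without WT array 23. *Cd209d* and the brightest *Cd209b* probe were above background on 0 of 5 cDC1 arrays. Another *Cd209b* probe was above background on 1 of 2 WT and 3 of 3 Mbd2-/- cDC1 arrays, so the probes of *Cd209b* disagree on its presence in cDC1s.

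The Cd209 genes also differed between cell types, each taken as the mean of both genotypes with equal weight. The brightest *Cd209b* probe was above background on 10 of 10 macrophage and 3 of 10 monocyte arrays, and *Cd209d* on 10 of 10 and 4 of 10. Both entered this comparison only through macrophages, so their differences are given without a test. The measured means were higher in macrophages by 1.41 for *Cd209b*, for which every macrophage array was brighter than every monocyte array, and by 1.14 for *Cd209d*. For *Cd209a* the comparison holds the monocyte values on which the group was chosen, and it too is a description. The *Cd209a* mean was higher by 0.74 in macrophages, by 0.12 with WT arrays alone and by 1.35 with Mbd2-/- arrays alone. From macrophages to cDC1s *Cd209a* fell by 0.96 (standard error 0.25, adjusted p = 0.00271), and the adjusted p was 0.05004 without WT cDC1 array 26. The brightest probe of *Cd209b* and that of *Cd209d*, not above background in cDC1s, were at least 2.62-fold and 2.39-fold brighter in macrophages. Between cDC1s and monocytes the *Cd209a* means differed by -0.22.

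Among the receptors that use the Fc receptor gamma chain, *Clec4d* differed between genotypes in cDC1s. It read 5.99 and 6.19 in WT cDC1s and 7.19, 6.73 and 7.02 in Mbd2-/- cDC1s, so that every Mbd2-/- array was brighter than both WT arrays. Before normalization the genotypes overlapped, at raw intensities of 163 and 153 in WT and 184, 119 and 135 in Mbd2-/-. The mean raw intensity of all probes on these arrays was 292 and 265 in WT and 228, 172 and 193 in Mbd2-/-. *Clec4d* rose by 0.90 in Mbd2-/- cDC1s (standard error 0.21, limma adjusted p = 0.0142), which is 1.86-fold and just under the minimum of 1 on the log2 scale set for a call. It was the 1 of 6 members tested in cDC1s that passed, where 3.39% of all probes tested rose. Among all probes tested, 31.8% likewise kept the 2 WT apart from the 3 Mbd2-/- arrays. The adjusted p was 0.117 without WT array 23, 0.0787 with array weights, 0.0931 without background correction and 0.349 when cDC1s were normalized and fitted alone. Under median scaling, which moved the median of all probes by -0.37 in this comparison, the *Clec4d* difference was 0.25 (adjusted p = 0.697).

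Cell markers moved with the same arrays. The 7 macrophage markers summed to 1249 to 1330 on WT and 1522 to 3734 on Mbd2-/- cDC1 arrays, the 6 monocyte markers to 6670 to 6868 and 7756 to 9839, and the 7 neutrophil markers to 598 to 665 and 1074 to 2597. None of these sums overlapped between genotypes, and neither did the arrays of 31.8% of all probes tested. Of all probes tested in cDC1s 6.62% passed between genotypes in either direction. Of the markers tested, 1 of 7 macrophage, 0 of 4 monocyte, 1 of 5 neutrophil and 1 of 2 eosinophil markers passed. Among those of cDC2s and monocyte-derived dendritic cells 1 of 7 passed. The complement gene *C1qb* rose by 0.92 (limma adjusted p = 0.0152) and the neutrophil granule gene *Ltf* by 1.07 (adjusted p = 0.0353) in Mbd2-/- cDC1s, as did the eosinophil granule gene *Prg2* (1.27, adjusted p = 0.0198) and *Sirpa* (1.00, adjusted p = 0.00616), which marks cDC2s and macrophages. The cDC1 markers summed to 13794 to 14862 and 13075 to 14325, and 0 of 8 passed. No T cell or epithelial marker passed between genotypes in any of the 3 cell types. The defining monocyte markers *Ccr2* and *Vcan* were above background on no cDC1 array. The part of such cells in the *Clec4d* difference was not tested.

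In the other 2 cell types the *Clec4d* difference had the opposite sign. In WT monocytes *Clec4d* read 11.78, 12.19, 11.98, 12.13 and 12.20, and in Mbd2-/- monocytes 12.02, 11.55, 11.99, 11.79 and 11.35, a difference of -0.32 (standard error 0.14). In macrophages it read 10.94, 11.08, 11.26, 11.48 and 11.44 in WT and 10.76, 11.12, 11.14, 10.94 and 10.65 in Mbd2-/-, again with overlap. The macrophage difference was -0.32 (standard error 0.14, limma adjusted p = 0.183). The genotype difference in cDC1s minus that in macrophages was 1.21 for *Clec4d* (standard error 0.25, limma adjusted p = 0.00994), against 4.12% of all probes tested that passed in this direction. It did not pass without WT cDC1 array 23 (1.12, adjusted p = 0.0808) or under median scaling (0.67, adjusted p = 0.475). The interaction passed for 1 of 8 members tested. By their brightest probes *Cd209b*, *Cd209d* and *Clec5a* were above background on no cDC1 array and entered it only through macrophages. Their interactions are therefore not read as a difference between cell types. For *Cd209d* the interaction was 0.86, or 1.21 without Mbd2-/- macrophage array 17, and is given without a test.

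**Figure D2:**
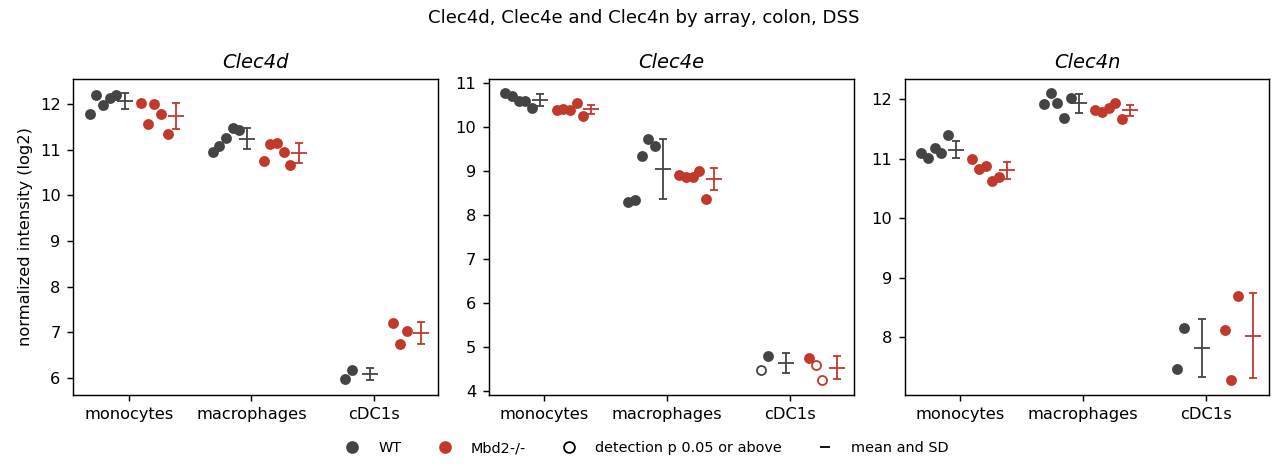
Normalized log2 intensity (vertical axis) of *Clec4d*, *Clec4e* and *Clec4n* on each of the 25 colon arrays by cell type (horizontal axis), with WT in grey and Mbd2-/- in red, open points for probes not above background and bars for the mean and SD. All cDC1 arrays lie below all monocyte and macrophage arrays for the 3 genes, and the Mbd2-/- cDC1 arrays of *Clec4d* lie between 6.73 and 7.19, above both WT cDC1 arrays.

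*Clec4e*, whose product recognises mycobacterial glycolipid and products of dying cells, did not pass between genotypes in macrophages or cDC1s. It read 10.77, 10.70, 10.59, 10.58 and 10.44 in WT monocytes and 10.40, 10.40, 10.40, 10.55 and 10.26 in Mbd2-/- monocytes, a difference of -0.21 (standard error 0.22). In macrophages it read 8.30, 8.34, 9.34, 9.72 and 9.57 in WT and 8.92, 8.88, 8.88, 9.01 and 8.37 in Mbd2-/-. The WT macrophages fell into 2 low and 3 high arrays, and their SD of 0.68 exceeded that of the Mbd2-/- arrays at 0.25. The difference was -0.24 (standard error 0.21, limma adjusted p = 0.521). Within the 2 sets of columns it was 0.03 and -0.75.

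*Clec4n*, which encodes a receptor for fungal mannan, read 11.10, 11.01, 11.18, 11.10 and 11.40 in WT monocytes and 10.99, 10.83, 10.88, 10.63 and 10.70 in Mbd2-/- monocytes. Every Mbd2-/- array was dimmer than every WT array, by -0.35 between the means (standard error 0.18). The arrays of 4.85% of all probes tested in monocytes did not overlap either, and besides *Clec4n* the one such member was *Cd209a*, whose separation the choice of the group fixed. *Clec4n* differed by -0.12 in macrophages (standard error 0.18, limma adjusted p = 0.717) and by 0.21 in cDC1s (standard error 0.25, adjusted p = 0.658).

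Between cell types these 3 genes showed wide differences. *Clec4e* fell by 1.58 from monocytes to macrophages (standard error 0.15, limma adjusted p = 1.77e-08), and no macrophage array reached the dimmest monocyte array. *Clec4d* fell by 0.82 (standard error 0.10, adjusted p = 9.11e-07), with some overlap between arrays. *Clec4n* went the other way and rose by 0.90 (standard error 0.12, adjusted p = 4.17e-06), with every macrophage array brighter than every monocyte array. The genes of these receptors, neighbours on chromosome 6, thus did not all move in one direction between the 2 cell types.

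In cDC1s all 3 were far lower. *Clec4e* was above background on 2 of 5 cDC1 arrays, at 4.47 and 4.80 in WT and 4.76, 4.61 and 4.25 in Mbd2-/-, so its measured differences of -5.92 against monocytes and -4.34 against macrophages are against a level near background. They are given without a test, since *Clec4e* entered these comparisons only through the brighter cell type. *Clec4d* was lower by -5.36 and -4.55 (limma adjusted p = 8.74e-20 and 1.64e-18). *Clec4n*, at 7.47 and 8.16 in WT and 8.12, 7.28 and 8.69 in Mbd2-/- cDC1s, was lower by -3.06 and -3.96 (adjusted p = 5.65e-14 and 5.41e-16). The *Clec4d* difference was also present inside one set of columns. WT cDC1s against WT monocytes of the same set differed by -5.99 and -5.98, each with 1 cDC1 array. Mbd2-/- cDC1s against Mbd2-/- macrophages of the same set differed by -3.60 and -4.27, again with 1 cDC1 array in each.

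By its brightest probe *Clec7a*, the β-glucan receptor gene, was bright in all 3 cell types. Among the members tested it had the least difference between genotypes. A second *Clec7a* probe was above background on 1 Mbd2-/- monocyte and 1 WT macrophage array only, and was not tested. By the brightest probe the WT monocyte arrays read 11.85, 12.04, 12.24, 12.16 and 12.12 and the Mbd2-/- monocyte arrays 11.89, 12.04, 12.16, 12.08 and 12.13. The genotype differences were -0.02 in monocytes (standard error 0.20), 0.00 in macrophages (standard error 0.19, limma adjusted p = 0.995, interval -0.40 to 0.41) and -0.01 in cDC1s (standard error 0.28, adjusted p = 0.985, interval -0.59 to 0.57). Macrophages differed from monocytes by 0.00 (standard error 0.14, adjusted p = 0.985). In cDC1s it read 10.37 and 11.25 in WT and 10.20, 10.48 and 11.71 in Mbd2-/-, a wide spread in which every array was still dimmer than every monocyte and macrophage array. *Clec7a* was lower in cDC1s by -1.27 against monocytes (standard error 0.17, adjusted p = 1.08e-06) and by -1.28 against macrophages (standard error 0.17, adjusted p = 1.11e-06). Array 30 of the Mbd2-/- cDC1s was the brightest of the cDC1 arrays for both *Clec7a* and *Clec4n*, and these 2 genes had deviations from their group means that correlated at r = 0.61 over 25 arrays.

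*Clec5a*, which signals through the *Tyrobp* adaptor, was the 1 of 6 members tested in monocytes whose mean was higher in Mbd2-/- than in WT monocytes. It read 6.77, 6.68, 6.20, 7.35 and 6.98 in WT monocytes and 7.30, 6.88, 7.09, 7.47 and 7.74 in Mbd2-/- monocytes. The genotypes overlapped, and the difference was 0.50 (standard error 0.22). It was 1.06 within the first set of columns and -0.08 within the second. In macrophages the difference was 0.28 (standard error 0.22, limma adjusted p = 0.469), and another *Clec5a* probe gave -0.26 (adjusted p = 0.475). *Clec5a* fell by 0.54 from monocytes to macrophages (standard error 0.16, adjusted p = 0.00754), a difference that one of its other probes (-0.43, adjusted p = 0.0601), the WT arrays alone (-0.43, adjusted p = 0.168) and median scaling (-0.49, adjusted p = 0.0849) did not pass. None of its 3 probes was above background on any cDC1 array, and by the brightest of them monocytes were at least 5.41-fold and macrophages at least 3.71-fold brighter than cDC1s. The other 2 probes gave lower bounds, of 2.77-fold and 2.62-fold for monocytes.

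**Figure D3:**
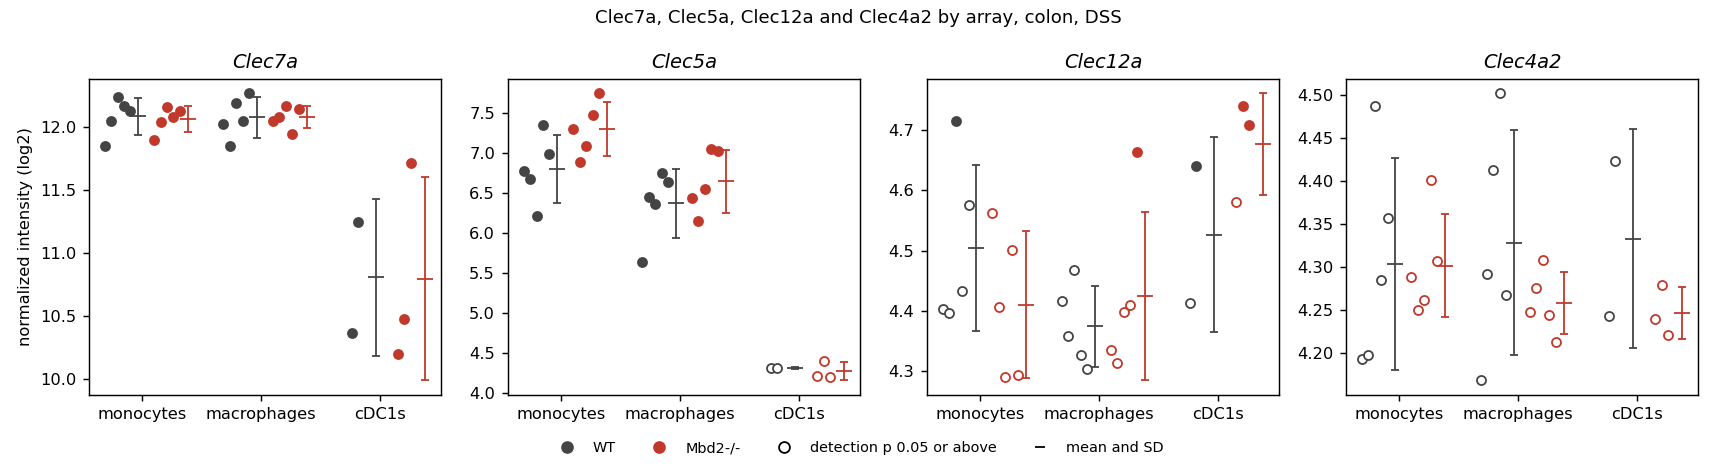
Normalized log2 intensity (vertical axis, a different range in each panel) of *Clec7a*, *Clec5a*, *Clec12a* and *Clec4a2* on each of the 25 colon arrays by cell type (horizontal axis), with WT in grey and Mbd2-/- in red, open points for probes not above background and bars for the mean and SD. *Clec7a* lies near 12.1 in every monocyte and macrophage group and *Clec5a* is not above background in cDC1s, while nearly all points of *Clec12a* and all of *Clec4a2* are open.

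The inhibitory receptors gave little signal. Both probes of *Clec4a2* were above background on 0 of 25 arrays, so the arrays say nothing of its level. *Clec12a* was above background on 1 of 5 WT monocyte arrays, 1 of 5 Mbd2-/- macrophage arrays, 1 of 2 WT cDC1 arrays and 2 of 3 Mbd2-/- cDC1 arrays. Its cDC1 values were 4.41 and 4.64 in WT and 4.58, 4.74 and 4.71 in Mbd2-/-, a difference of 0.15 (standard error 0.13, limma adjusted p = 0.508).

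Counted over the 10 genes, 6 could be tested between genotypes in monocytes, 8 in macrophages and 6 in cDC1s. In monocytes *Cd209a* was the 1 of 6 beyond the thresholds of a call, where 0.105% of all probes tested were on that side. The choice of the group fixed this count, so nothing is read from it. In macrophages limma found 0 of 8 at an adjusted p under 0.05, where 5.67% of all probes tested passed in either direction. At an unadjusted p under 0.05 there were 4, *Cd209a*, *Cd209b*, *Cd209d* and *Clec4d*, all lower in Mbd2-/- macrophages, where 13.3% of all probes tested were lower at that threshold. The median difference of the tested members was -0.28 in macrophages and 0.07 in cDC1s, against -0.07 and 0.03 over all probes tested.

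**Figure D4:**
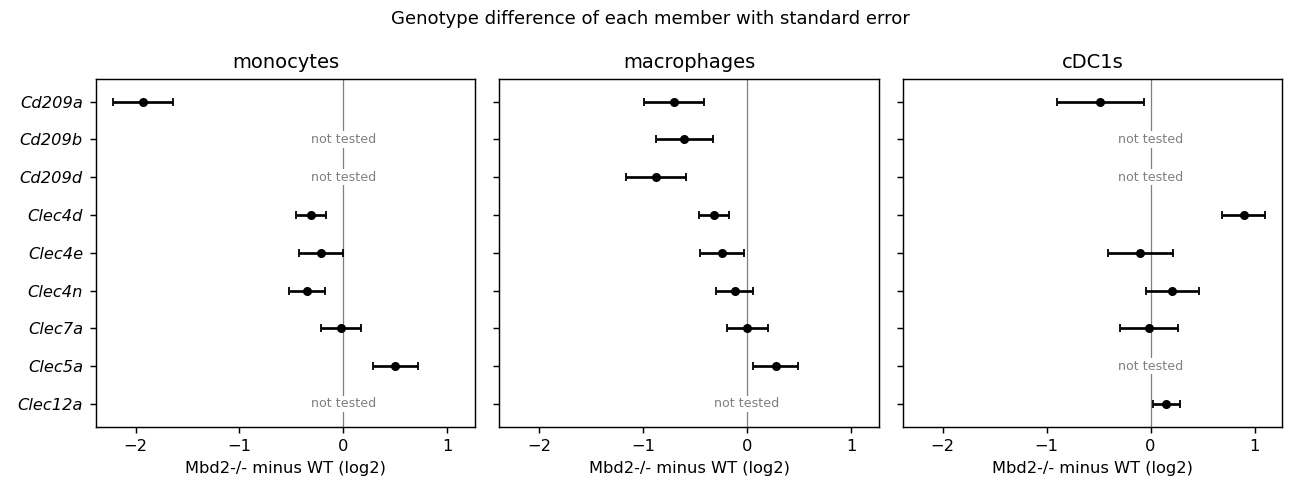
Difference Mbd2-/- minus WT on the log2 scale (horizontal axis) of each member's brightest probe in monocytes, macrophages and cDC1s, with bars for the standard error of the limma fit; a member not above background on enough arrays is marked as not tested, and *Clec4a2*, above background on no array, is left out. *Cd209a* stands at -1.93 in monocytes, -0.70 in macrophages and -0.48 in cDC1s, and *Clec4d* at -0.32, -0.32 and 0.90.

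Between cell types, 7 of 8 members entered passed from monocytes to macrophages, 4 higher and 3 lower, where 20.6% of all probes tested were higher and 18% lower. Arrays of these cell types did not overlap for 3 of 8 members (*Cd209b*, *Clec4e* and *Clec4n*), where 7.67% of all probes tested had no overlap. With the minimum fold, 3 of 8 were called (*Cd209b* and *Cd209d* higher, *Clec4e* lower), where 4.89% of all probes tested were. Between cDC1s and monocytes 5 of 6 were called lower, where 8.76% of all probes tested were called lower. Between cDC1s and macrophages 8 of 8 passed lower and 7 of 8 were called lower, where 25.6% and 8.35% of all probes tested were. The filter and the choice of the group enter these counts, which therefore describe the members and support nothing. *Clec4e* and *Clec5a* in both cDC1 comparisons, *Cd209b* and *Cd209d* against cDC1s and monocytes, entered only through the cell type in which they were bright, and the *Cd209a* monocyte values chose the group. The 4 T cell markers tested were higher in cDC1s than in monocytes, at sums of 358 to 2738 on cDC1 and 202 to 452 on monocyte arrays, and their part in these differences was not tested.

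**Figure D5:**
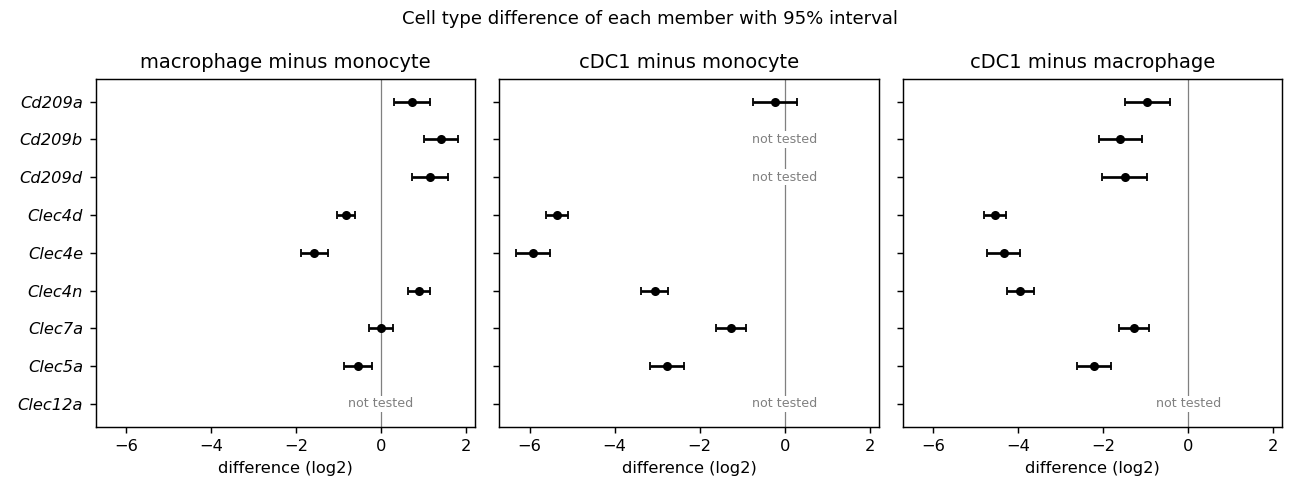
Difference between cell types on the log2 scale (horizontal axis), each cell type taken as the mean of both genotypes, for each member's brightest probe with its 95% interval from the limma fit, *Clec4a2* left out. The intervals of *Cd209b* and *Cd209d*, of *Clec4e* and *Clec5a* against cDC1s, and of *Cd209a* against monocytes are not read as tests. The filter or the choice of the group enters them. Macrophages lie above monocytes for *Cd209b* (1.41), *Cd209d* (1.14) and *Clec4n* (0.90) and below them for *Clec4e* (-1.58), and in cDC1s *Clec4d*, *Clec4e* and *Clec4n* lie between -5.92 and -3.06 against monocytes.

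Other C-type lectin genes of myeloid cells were read for comparison. Of 25 listed, 21 were on the array. From monocytes to macrophages 12 were tested. Of these 7 rose and 1 fell, where 20.6% of all probes tested were higher and 18% lower. The rises were led by *Cd209f* (2.96, limma adjusted p = 4.96e-11), a further gene of the Cd209 family, *Cd72* (2.64), and *Mrc1* (2.03), which encodes the mannose receptor. Between cDC1s and macrophages 14 of 16 fell, among them *Clec4a1* (-5.49) and *Clec4a3* (-5.43), while *Clec9a*, the cDC1 receptor for dead cells, was the 1 that rose (4.48). Of all probes tested 25.6% were lower and 27.3% higher. *Cd209c* and *Clec1b* were above background on no cDC1 array and entered this comparison only through macrophages, so its counts are a description. Between genotypes few passed. In macrophages *Mgl2* rose (1.41, adjusted p = 0.0376), whereas *Cd207* (-0.96, adjusted p = 0.00102) and *Cd209c* (-0.70, adjusted p = 0.0112) fell. *Clec1b*, higher there by 0.59, was above background on no WT macrophage array. It entered only through Mbd2-/- macrophages, so its difference is given without a test. In monocytes 1 of 11 passed, *Mrc1* (-0.74, standard error 0.19), where 1.8% of all probes tested did. Of 15 tested in macrophages 4 passed with *Clec1b* counted, where 5.67% of all probes tested passed. In cDC1s 2 of 14 passed, where 6.62% did. *Clec4a1*, which lies in the same gene family as *Clec4d*, rose there by 1.13 (adjusted p = 0.0121), and *Ly75*, the gene of the endocytic receptor DEC-205, fell by 1.07 (adjusted p = 0.00586).

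Of 21 genes of lectin receptor signalling, 20 were on the array. No probe carried the symbol *Card9*, so that gene was not read. *Malt1*, which encodes the protease of the Card9 complex, was lower in Mbd2-/- cells of each type, by -1.03 in monocytes (standard error 0.19), -0.79 in macrophages (limma adjusted p = 0.0198) and -1.08 in cDC1s (adjusted p = 0.0211). The kinase gene *Src* rose by 1.02 in Mbd2-/- cDC1s (adjusted p = 0.0314). No other gene of the list passed between genotypes in any of the 3 cell types, the adaptors *Fcer1g* and *Tyrobp* included. Both adaptors were lower in cDC1s than in monocytes, *Fcer1g* by -2.86 (adjusted p = 2.22e-18) and *Tyrobp* by -1.35 (adjusted p = 9.46e-14). In all, 15 of 19 signalling genes tested were lower and 2 higher in cDC1s than in monocytes, where 25.9% of all probes tested were lower and 27.6% higher.

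The genes whose pattern was most like that of *Cd209a* over the 25 arrays, by Pearson r among 17001 probes, were *Dgkd* (0.82), *Dazap2* (0.75), *Gpr137b-ps* (0.75), *Gnpda1* (0.74) and *Rps6ka5* (0.74). With group means removed, they were *Lrrc17* (0.78), *D0HXS9928E* (0.72), *BC027231* (0.72), *Ercc8* (0.71) and *Cysltr1* (0.69). No gene was in both lists. No member of the group was among them. The arrays behind each r share their normalization, and no test was made.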

How the data were processed

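Sample groups came from the labels. The authors deposited a raw intensity for 45281 probes on each array, exported from GenomeStudio without normalization, with a deposited detection p-value per probe computed against negative controls. Per the labels, the submitters' processing notes name lumi and limma, and the settings were not given in the sources used here. Another 3 array columns belonged to no sample and were not used.

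Here intensities were corrected by normexp with 936 negative control probes (offset 16) and quantile normalized over the 25 colon arrays, log2 values were taken, and the 6 combinations of cell type and genotype entered a single limma model (R 4.3.3, limma 3.58.1; figures with matplotlib 3.10.9). Tests covered probes above background (detection p under 0.05) on no fewer arrays than the smaller group has, the spread was moderated over the probes tested, and p-values (two-sided) were adjusted by Benjamini-Hochberg within each comparison. A probe passed at an adjusted p under 0.05 and was called where its log2 difference also reached 1 in size. Each member is given by the probe with the highest mean, and different probes were not averaged. A probe above background on no array of a group has only a bound there, set from the lowest signal of probes above background on each array.

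All 10 members, the genes with the highest r with *Cd209a*, and up to 4 called genes per list and comparison were to be named. Genes that passed without the minimum fold, and *Ccr2*, *Vcan*, *Ms4a1*, *Fcer1g* and *Tyrobp*, were named after their values were seen. The members and lists were chosen with earlier results of these data known. Marker lists covered monocytes, macrophages, cDC1s, cDC2s and monocyte-derived dendritic cells, neutrophils, eosinophils, B and plasma cells, T cells and epithelial cells. On simulated data 86% of probes lowered by 1 passed in macrophages. In cDC1s 72% of probes raised by 1 and 64% of probes lowered by 1 passed. The simulated noise was independent between arrays and had no background floor, so these shares may not hold for members near background. Precision is limited by how many arrays there were. The record gives 1 to 5 mice per array and the study's methods 1 to 10, and p-values measure the spread between arrays.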

Additional observations from a re-analysis of the deposited data

Results flagged for a closer look

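In Mbd2-/- macrophages, array 20 stood apart from the other 4 for *Clec4e*, at a log2 intensity of 8.37 against 8.88 to 9.01, and for *Clec12a*, at 4.66 against 4.31 to 4.41. In all, 40 groups of values were examined in this way, and chance alone gives about 1 such value in 20 groups. The genotype difference of *Clec4d* differed between cDC1s and macrophages, by 1.21 on the log2 scale in the test of the interaction. On the splenic T cell arrays, which enter no comparison, some members were above background in raw intensity (detection p under 0.05). *Clec4n* read 136 on the WT and 144 on the Mbd2-/- array and *Clec7a* 112 and 97.1, whereas *Clec4d* (116) and *Clec5a* (101) were above background on the WT array alone. There was 1 T cell array per genotype, so no test was possible.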

How the results depend on the processing

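The labels state no pairing, since each array number occurs once and groups share no replicate numbers. When monocyte and macrophage arrays with numbers 10 apart were taken as pairs, the correlation within pairs was 0.056. Whether such arrays came from the same mice is not given. The sets of 6 columns as a block could be fitted for the genotype comparisons of monocytes and macrophages and for no other comparison; that alternative was not run elsewhere. Without background correction the members called were 0 in monocytes (1 as reported), 1 from monocytes to macrophages (3) and 4 between cDC1s and macrophages (7). From monocytes to macrophages the count was 1 with an offset of 50, 7 without a minimum fold and 5 with Mbd2-/- arrays alone. Without a minimum fold it was 1 for cDC1 genotypes (0 as reported). Under median scaling 0 members passed the interaction (1 as reported). Leaving out each array in turn gave 0 to 1 called for macrophage genotypes (1 without Mbd2-/- array 17), 0 to 1 for cDC1 genotypes (1, *Clec4d*, without Mbd2-/- array 28), and 0 to 2 passing the interaction (0 without WT cDC1 array 23, 2 without Mbd2-/- macrophage array 17). The member added without array 17 was *Cd209d*, which entered the interaction only through macrophages.

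Directions that turned belonged to differences that did not pass. Under median scaling these were *Clec7a* in macrophages (-0.0651) and from monocytes to macrophages (-0.0872), *Clec4n* in cDC1s (-0.42), and the interaction of *Cd209a* (-0.13) and *Clec4n* (-0.22). Under cyclic loess they were *Clec4e* (0.40) and *Clec7a* (0.0366) in cDC1s and the interaction of *Clec5a* (0.16). *Clec7a* in macrophages also turned with array weights (-0.0295) and with the sets as a block (-0.0221), in cDC1s fitted alone (0.000939) and from monocytes to macrophages in WT arrays (-0.00817). *Cd209a* between cDC1s and monocytes was 0.50 in Mbd2-/- arrays alone. Another *Clec5a* probe gave -0.26 in macrophages and 0.36 for the interaction. With single arrays left out, the differences that turned ranged from -0.0535 to 0.0508 (*Clec7a*, macrophages), -0.995 to 0.0289 (*Cd209a*, cDC1s), -0.26 to 0.0665 (*Clec4e*, cDC1s), -0.14 to 0.59 (*Clec4n*, cDC1s), -0.47 to 0.43 (*Clec7a*, cDC1s), -0.0246 to 0.0332 (*Clec7a*, macrophages against monocytes) and -0.48 to 0.0319 (*Cd209a*, cDC1s against monocytes). For the interaction they ranged from -0.30 to 0.73 (*Cd209a*), -0.0204 to 0.33 (*Clec4e*), -0.0165 to 0.71 (*Clec4n*) and -0.47 to 0.43 (*Clec7a*). The cause of these changes was not tested. Moderating the spread over all probes, an alternative chosen after seeing the data, changed none of the counts by more than 1.5 times. With 2 WT cDC1 arrays, and with *Cd209b*, *Cd209d*, *Clec12a* and *Clec4a2* near background, a lack of difference cannot be read from these data. *Cd209a* was also near background in Mbd2-/- monocytes, which bears on the size of its difference there.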
